A study of Mus musculus with 9 samples.

Results

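The livers of vehicle-treated mice are described here by themselves: which transcripts and gene families made up the liver transcriptome, and which genes differed most between the 3 libraries. They are the 3 vehicle libraries of a series of 9, chosen by their label alone, and the 6 libraries of compound-treated mice entered no value below. The series set AdipoRon, which activates the receptors of the fat-derived hormone adiponectin, and AdipoRonPEG5, its analog carrying polyethylene glycol, against vehicle in liver. The mice were C57BL/6, and the vehicle was phosphate-buffered saline (PBS). The labels give 5 mg/kg, 2 injections a day and 5 days in one sentence that covers PBS and compounds alike. Age, sex and diet of these mice are not given in the labels. The labels number the libraries 1 to 3 but do not state that each came from a separate mouse, so the spread below is the spread between these libraries and may be partly technical. No extraction or sequencing batch is given. Total RNA from frozen liver was sequenced, and each table entry has a read count and an FPKM value, which divides the count by gene length and by the library's total and so allows levels of different genes to be compared. With 1 group there was no contrast to test, and no p-value is given.

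Hepatocytes make up most of the liver's mass and secrete most plasma proteins: albumin, apolipoproteins, clotting factors, complement and protease inhibitors. They also synthesise bile acids and cholesterol, oxidise fatty acids, make urea and detoxify drugs through cytochromes P450. When interleukin-6, interleukin-1 or related signals reach hepatocytes, they secrete acute phase proteins such as serum amyloid A, haptoglobin and fibrinogen. STAT3, NF-kB and C/EBP factors are known to act at the promoters of these genes. In mice, hepatocytes also make major urinary proteins, small carriers of pheromones that are excreted in urine.

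The promoters of Saa1, Saa2, Lcn2 and Orm2 are printed first because these were the 4 acute phase genes furthest apart between the vehicle libraries. Saa1 and Saa2 encode serum amyloid A proteins carried on high-density lipoprotein, Lcn2 encodes the iron-siderophore carrier lipocalin-2, and Orm2 encodes an orosomucoid, a drug-binding plasma protein. Each run is the 250 bases before the annotated start, 5′ to 3′ on the gene's strand, from RefSeq on GRCm38.p6. The positions are chr7:46742981-46743230 (minus strand) for Saa1, chr7:46751583-46751832 (plus strand) for Saa2, chr2:32387740-32387989 (minus strand) for Lcn2 and chr4:63362199-63362448 (plus strand) for Orm2. Capitals mark matches on either strand to TTGCNNAA, letters of the C/EBP motif, or to the NF-kB motif, searched as 3 G, any 5 bases and 2 C.
Saa1: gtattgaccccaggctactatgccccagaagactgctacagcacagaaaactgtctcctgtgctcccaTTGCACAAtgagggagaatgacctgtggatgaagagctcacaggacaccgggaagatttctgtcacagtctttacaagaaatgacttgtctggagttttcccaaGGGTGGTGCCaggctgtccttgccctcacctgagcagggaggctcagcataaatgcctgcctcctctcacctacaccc
Saa2: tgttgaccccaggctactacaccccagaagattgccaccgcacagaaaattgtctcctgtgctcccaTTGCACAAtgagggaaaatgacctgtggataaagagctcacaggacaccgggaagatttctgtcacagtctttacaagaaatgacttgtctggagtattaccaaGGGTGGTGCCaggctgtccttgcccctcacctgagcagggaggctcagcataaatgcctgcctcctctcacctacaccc
Lcn2: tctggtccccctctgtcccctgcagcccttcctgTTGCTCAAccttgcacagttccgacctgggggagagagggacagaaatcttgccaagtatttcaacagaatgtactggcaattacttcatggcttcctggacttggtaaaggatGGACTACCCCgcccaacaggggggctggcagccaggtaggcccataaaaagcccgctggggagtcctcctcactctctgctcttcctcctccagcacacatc
Orm2: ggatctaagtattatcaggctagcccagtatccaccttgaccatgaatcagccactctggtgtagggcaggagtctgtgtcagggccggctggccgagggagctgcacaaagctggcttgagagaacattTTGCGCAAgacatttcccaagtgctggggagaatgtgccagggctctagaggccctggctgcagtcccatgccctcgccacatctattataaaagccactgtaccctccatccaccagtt
The Saa1 and Saa2 windows had 238 identical aligned bases, 94.8% of the alignment, whereas Saa1 and Lcn2 were 51.3% identical. The match TTGCACAA began 182 bases before the start in Saa1 and 183 before it in Saa2. In Lcn2 the match TTGCTCAA began 216 bases before the start. In Orm2 the match TTGCGCAA, which reads the same on both strands, began 120 bases before the start. All 4 also match the narrower TTGCNCAA, which is contained in TTGCNNAA. Saa1 and Saa2 shared GGGTGGTGCC, beginning 78 and 79 bases before the start, and Lcn2 held GGACTACCCC, a match on the opposite strand, beginning 102 bases before it. Orm2 held no match to the NF-kB letters but held TATAAA, beginning 33 bases before its start. Counted per gene on both strands, TTGCNNAA lies in 10.8% of 27025 genes with a promoter in the RefSeq table, TTGCNCAA in 2.99%, the NF-kB letters in 48.7% and TATAAA in 14.3%. Such a match describes letters, not a bound site.

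The libraries held 39473195, 13942322 and 14492307 counts for vehicle 1, 2 and 3, so vehicle 1 was sequenced more deeply than the other two. Of 35275 table entries, 19670 had a count in at least 1 vehicle library and 15600 in all 3. A mean FPKM of at least 1 was reached by 10248 entries, of at least 10 by 4025, of at least 100 by 689 and of at least 1000 by 67. Counts were concentrated in few genes: 195 genes held 50% of the counts of vehicle 1, 183 of vehicle 2 and 159 of vehicle 3. The 10 genes with the most counts took 17.5%, 17.6% and 16.9%. On the per-length scale, 87, 82 and 71 genes held 50% of summed FPKM.

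The transcriptome was led by genes of secreted plasma proteins. Alb, encoding albumin, was first in each library, at 28005, 28664 and 20811 FPKM in vehicle 1, 2 and 3 (mean 25827 ± 4356 FPKM, SD, n = 3). Apoe, the ligand by which remnant lipoproteins are taken up, had rank 2 in each, at 23208, 21955 and 19054 FPKM. The next places went to Apoa2 (17232 ± 2239 FPKM) and Apoa1 (13408 ± 2619 FPKM), the main proteins of high-density lipoprotein. Apoa2 and Apoa1 changed places between libraries: Apoa1 was at 11117, 12843 and 16263 FPKM and had rank 3 in vehicle 3 but rank 5 in vehicle 1 and 2. Apoa2, at 18828, 18195 and 14673 FPKM, ran in the opposite order, so their ranges overlapped.

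Mup3, a major urinary protein, followed at 11495, 14387 and 13345 FPKM, and its range overlapped that of Apoa1. Below them lay Apoc1 (7712 ± 780 FPKM), Fabp1, the fatty acid-binding protein of hepatocyte cytosol (7290 ± 1283 FPKM), and Ahsg, encoding fetuin-A (5797 ± 579 FPKM). Ttr, the thyroxine and retinol-binding protein carrier transthyretin, was at 5228 ± 895 FPKM. Cyp2e1, the ethanol-oxidising P450, was at 5524, 5166 and 3578 FPKM, lowest in vehicle 3. Neighbouring ranks in this stretch mostly differed by less than their SD, so their order is not resolved by 3 libraries.

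Other genes among the 25 most abundant nuclear transcripts had a wide range, so their place depended on the library. Serpina1e, one of several mouse alpha-1-antitrypsin genes, was at 1858, 5680 and 10790 FPKM, rank 36, 11 and 6 in vehicle 1, 2 and 3. Hp, encoding haptoglobin, which binds free haemoglobin, was at 2557, 2782 and 7935 FPKM, rank 26 in vehicle 1 and 2 and rank 9 in vehicle 3. Hpx, encoding the haem-binding protein hemopexin, was at 1713, 1816 and 6112 FPKM, rank 40, 39 and 14. Saa1 showed the widest range of the 25: 74.0, 71.5 and 7604 FPKM, rank 885 and 894 in vehicle 1 and 2 and rank 10 in vehicle 3. The mean FPKM of Saa1 (2583 ± 4348) thus describes none of the 3 libraries. Among the top 25 of each library, 17 entries were common to all 3, and vehicle 1 and 2 shared 23. Among the top 100, 85 were common to all 3 and vehicle 1 and 2 shared 97.

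**Figure D1:**
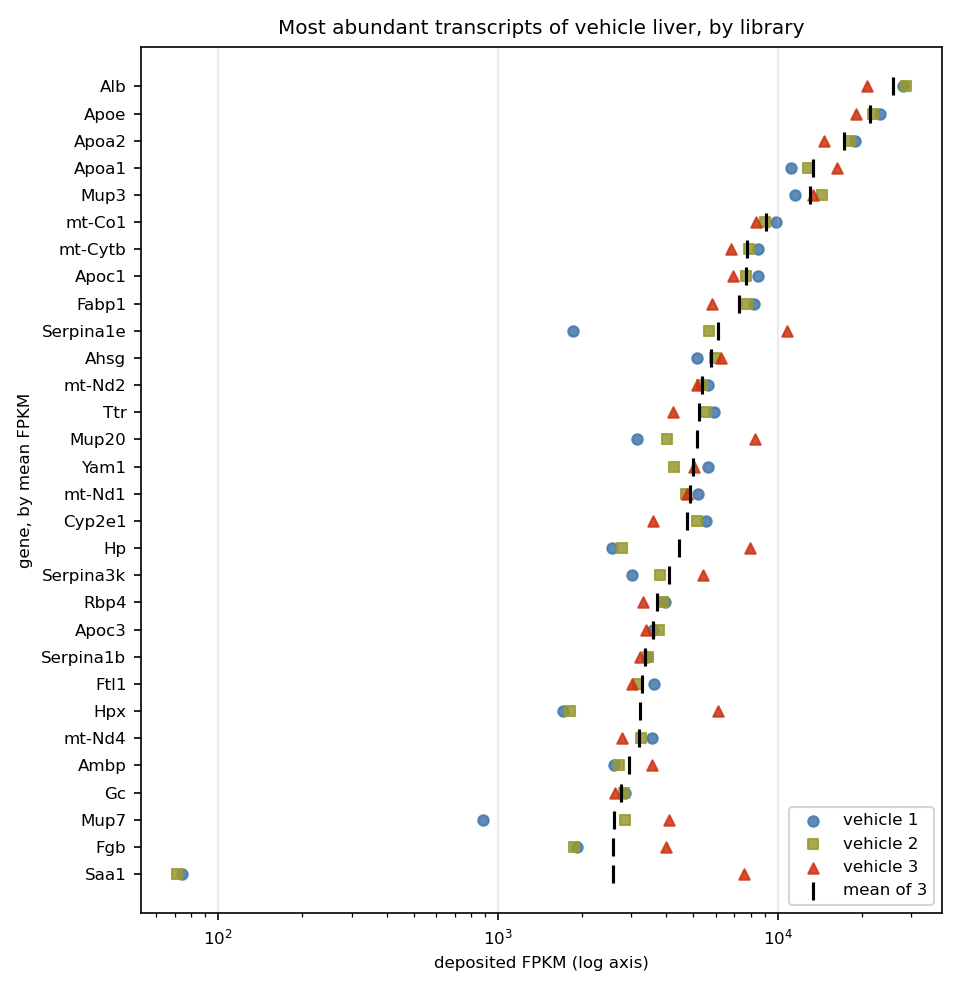
Deposited FPKM on a log axis for the 25 most abundant nuclear genes and 5 mitochondrially encoded genes, with 1 symbol per vehicle library and a tick at the mean of 3. Alb was first in each library, and Saa1 ran from 71.5 FPKM in vehicle 2 to 7604 FPKM in vehicle 3.

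Mitochondrially encoded transcripts, the respiratory chain subunits made inside mitochondria, took 4.60%, 4.18% and 3.85% of counts. The most abundant were mt-Co1 (9072 ± 734 FPKM), mt-Cytb (7757 ± 848 FPKM), mt-Nd2 (5385 ± 265 FPKM) and mt-Nd1 (4871 ± 273 FPKM). Other members were far lower on the same scale: mt-Co2 had a mean of 115 FPKM, mt-Co3 of 90.2, mt-Atp6 of 83.0 and mt-Atp8 of 3.03. Reads of these genes can be shared with nuclear copies, and the labels do not say how shared reads were counted, so the levels of individual members are uncertain.

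Families were also ranked by their share of summed FPKM, the mean over 3 libraries. Apolipoproteins came first (12.2 ± 0.735%), then 31 other plasma protein genes led by Alb (10.9 ± 0.545%), the mitochondrially encoded genes (6.21 ± 0.661%) and the major urinary proteins (4.25 ± 1.17%). The first 2 were close: apolipoproteins took 12.7%, 12.5% and 11.4%, and the other plasma proteins 11.2%, 11.3% and 10.3%. Their ranges over the libraries nearly met, at 11.35% for apolipoproteins in vehicle 3 and 11.33% for the other plasma proteins in vehicle 2. The second list leaves out plasma proteins held in other lists, so this order depends on how the lists were cut. Cytosolic ribosomal proteins took 4.05 ± 0.209%, fatty acid oxidation genes 2.25 ± 0.449%, amino acid breakdown genes 2.15 ± 0.184% and cytochromes P450 2.14 ± 0.404%. Acute phase proteins, at a mean of 3.67 ± 2.65%, took 2.18%, 2.09% and 6.73% of summed FPKM, so in vehicle 3 they lay above the mitochondrially encoded genes (5.55%) and the major urinary proteins (5.43%). In vehicle 1 the major urinary proteins (3.08%) lay below the ribosomal proteins (3.88%). By share of counts, which favours long genes, the plasma proteins came before the apolipoproteins in each library (11.3%, 11.6% and 10.7% against 7.03%, 6.99% and 6.66%). Acute phase proteins took 1.85% and 1.88% of counts in vehicle 1 and 2 and 4.99% in vehicle 3. The share of the major urinary proteins also differed, at 1.63%, 2.26% and 2.96% of counts.

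**Figure D2:**
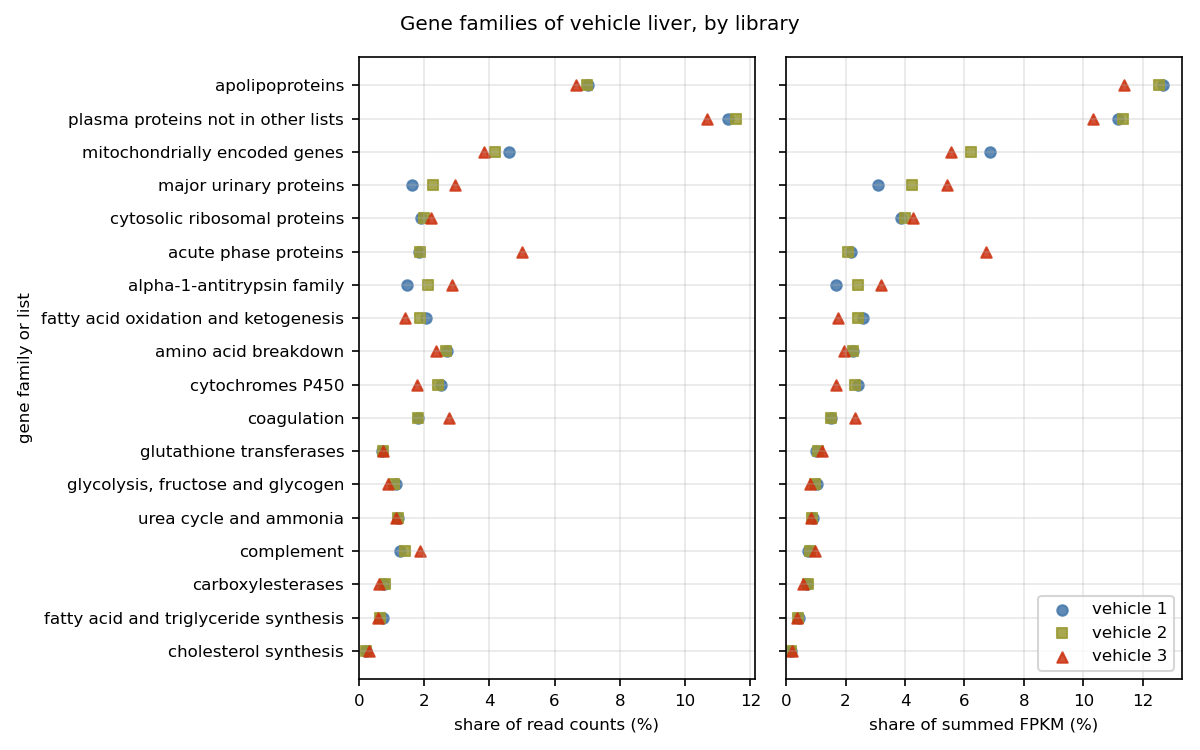
Share of read counts (left) and of summed FPKM (right), in percent, of 18 gene families or lists, with 1 symbol per vehicle library. Apolipoproteins took 11.4% to 12.7% of summed FPKM, while acute phase proteins took 1.85% and 1.88% of counts in vehicle 1 and 2 and 4.99% in vehicle 3.

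Urea cycle and amino acid breakdown enzymes held no gene 2-fold apart between libraries (0 of 11 and 0 of 33). In lists of this size that is near the 2.74% of all genes with at least 5 CPM. In the urea cycle, Ass1 was at 1523 ± 55.5 FPKM, Arg1, which releases urea, at 1294 ± 8.03 FPKM and Cps1, the entry enzyme, at 556 ± 23.7 FPKM. Of amino acid breakdown enzymes the highest were Hpd of the tyrosine pathway (1755 ± 238 FPKM) and the glycine methyltransferase gene Gnmt (1574 ± 22.4 FPKM). Pck1, which commits carbon to gluconeogenesis, was at 1300, 2022 and 1578 FPKM and Fbp1 at 557 ± 73.9 FPKM, so their ranges did not overlap. Among P450 genes Cyp2e1 was followed by Cyp2d9 (1030 ± 88.5 FPKM) and Cyp2d10 (680 ± 91.9 FPKM). Bile acid genes were led by the conjugating enzyme gene Slc27a5 (391 ± 40.2 FPKM) and the uptake transporter gene Slc10a1 (365 ± 65.3 FPKM), which overlapped.

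Both adiponectin receptor genes, the receptors that the compounds of this series address, were measured in vehicle liver. Adipor2 had a mean of 114 FPKM and Adipor1 of 26.0 FPKM. On the scale used to compare libraries (TMM-scaled CPM, counts relative to a library's total corrected for its composition), Adipor2 was at 484, 443 and 508 CPM and Adipor1 at 93.0, 84.0 and 91.3 CPM in vehicle 1, 2 and 3. Neither varied widely, and their levels did not overlap.

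Hepatocyte markers were the most abundant of the marker lists. All 12 hepatocyte markers had a mean of at least 5 CPM, and together they took 10.1%, 10.4% and 8.94% of counts. The 13 Kupffer cell and macrophage markers summed to 224, 202 and 290 CPM, led by C1qa (29.4 ± 5.97 FPKM) and Clec4f (24.5 ± 4.29 FPKM), and the 10 sinusoidal endothelial markers to 200, 216 and 179 CPM. The 11 stellate cell and fibroblast markers summed to 180, 134 and 132 CPM, and the 8 cholangiocyte markers to 36.0, 30.3 and 42.7 CPM. The 12 lymphocyte markers summed to between 3.56 and 4.56 CPM, and the 10 neutrophil markers to 0.568, 0.641 and 1.35 CPM, with Ly6g and Ltf at 0 counts in each library. Muscle markers, and those of gallbladder and kidney, each summed to at most 0.0712 CPM. Other lists from outside the liver were not empty. The gut epithelium markers summed to 94.8, 81.3 and 69.8 CPM and the exocrine pancreas markers to 29.9, 39.2 and 37.1 CPM. In each of these 2 lists, 1 member had at least 5 CPM. Adipocyte markers summed to 11.3, 5.77 and 5.77 CPM and mesothelium markers to 7.71, 5.70 and 9.12 CPM. In bulk tissue, fewer cells of a type and less RNA per cell cannot be told apart. The Y-linked Ddx3y was at 59.4, 59.3 and 57.5 CPM and Eif2s3y at 60.3, 64.7 and 65.0 CPM, while Xist, transcribed from the inactive X chromosome, was at 0.222, 0 and 0 CPM. All 3 libraries thus held Y-linked transcripts at similar levels.

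Erythroid markers were spread: 4 of the 6 with at least 5 CPM (66.7%) were at least 2-fold apart, beside 2.74% of all genes at that level. The count was 0 of 6 without vehicle 1, and 4 of 6 without vehicle 2 or without vehicle 3. The 8 markers summed to 232, 521 and 849 CPM in vehicle 1, 2 and 3. Hbb-bs, an adult beta-globin gene, was at 73.0, 207 and 365 CPM and Hba-a1, an alpha-globin gene, at 54.0, 152 and 252 CPM. The 4 globin genes were each lowest in vehicle 1 and highest in vehicle 3, 3.88-fold to 5.34-fold apart. Alas2, the haem synthesis enzyme gene of red cell precursors, had a smaller range, at 69.3, 75.3 and 106 CPM.

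Most genes were close between libraries. Over the 8992 genes with a mean of at least 5 TMM-scaled CPM, the median ratio of the highest to the lowest library was 1.18. The median coefficient of variation was 8.55%, where counting error alone gives 4.58%. Genes at least 2-fold apart numbered 246, which is 2.74% of those genes. For all 246 the exact 95% interval of the ratio of counts, which covers counting error only, lay above 1. At this floor and this ratio, the size of the counts nearly fixed that outcome. The highest and lowest libraries were also picked by their values, so the intervals are no separate check. At 1.5-fold the share was 9.82%, at 4-fold 0.656% and at 10-fold 0.189%. Leaving out vehicle 3 left 47 genes at least 2-fold apart, leaving out vehicle 1 left 146 and leaving out vehicle 2 left 220. The common biological coefficient of variation estimated by edgeR, the spread beyond counting error, was 0.157 over the 3 libraries and 0.0977 without vehicle 3.

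The share of genes at least 2-fold apart changed with level. It was 15.2% of 2782 genes between 1 and 5 CPM, which lie below the floor used here and where counting error is larger. Of 3571 genes between 5 and 20 CPM, 2.86% were at least 2-fold apart, and of 4014 between 20 and 100 CPM, 1.77%. Of 1283 genes between 100 and 1000 CPM the share was 4.52%, and of the 124 genes above 1000 CPM it was 12.1%, or 15 genes. These 15, named after their values were seen, were Serpina1e, Hp, Hpx, Fgb, Fgg, Fga, Saa1, Saa2, Itih3, Itih4, Mup7, Mup20, Selenbp2, Gstp1 and Car3. All of them but Car3 were highest in vehicle 3. Car3, the carbonic anhydrase of liver and muscle, was at 3411, 2817 and 1446 CPM.

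**Figure D3:**
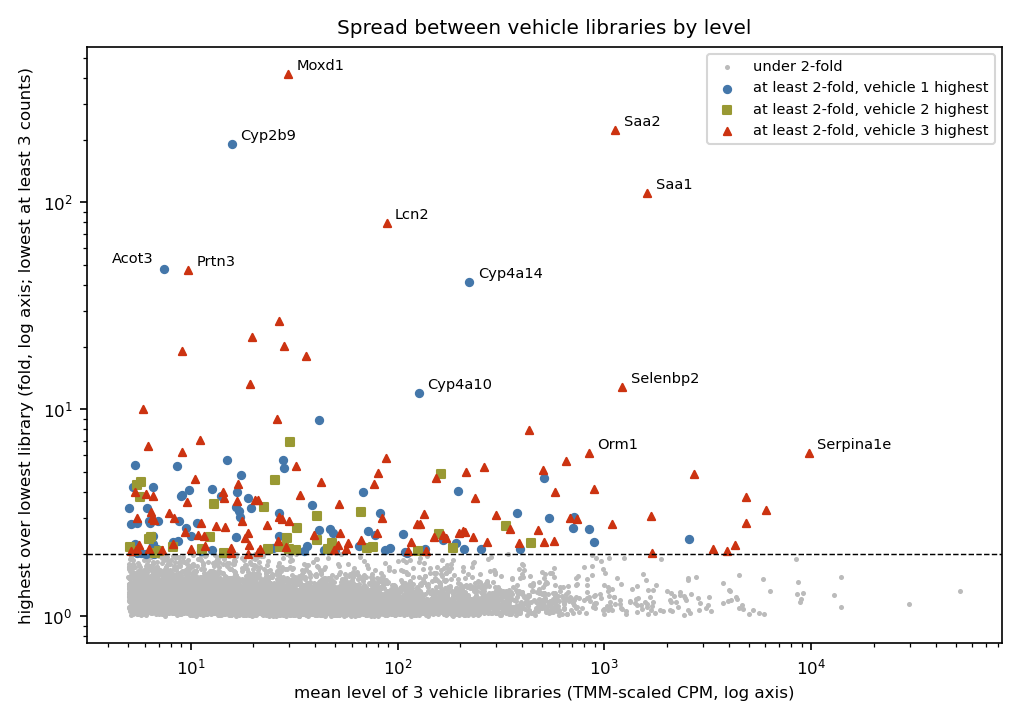
Ratio of the highest to the lowest vehicle library against the mean level (TMM-scaled CPM) for 8992 genes, both axes logarithmic, with the 246 genes at least 2-fold apart coloured by their highest library and a lowest count of 3 or fewer set to 3. Moxd1, Saa2, Cyp2b9 and Saa1 stand highest, and 15 of 124 genes above 1000 CPM lie past the 2-fold line.

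Vehicle 3 stood apart most often. Among the genes at least 2-fold apart, vehicle 3 was the highest in 123 (1.37% of 8992) and the lowest in 108 (1.2%), vehicle 1 the highest in 86 (0.956%) and the lowest in 102 (1.13%), and vehicle 2 the highest in 37 (0.411%) and the lowest in 36 (0.4%). Vehicle 3 lay at least 2-fold above the middle library in 75 genes (0.834% of 8992) and at least 2-fold below it in 49 (0.545%). Vehicle 1 did so in 12 and 25 genes (0.133% and 0.278%), and vehicle 2 in 2 and 2 (0.0222% each). The 4 genes of vehicle 2 were Phf11c and Cyp26b1 above and Col1a1 and Moxd1 below (Moxd1 by 0 counts against 1 in vehicle 1), named after their values were seen. Vehicle 1 and 2 were at least 2-fold apart in 51 genes (0.567%), vehicle 1 and 3 in 213 (2.37%) and vehicle 2 and 3 in 147 (1.63%). With vehicle 1 thinned to the depth of vehicle 2, 266 genes were at least 2-fold apart. Over all genes, the highest and lowest library were counted only among those at least 2-fold apart. Such counts over whole lists, given below, therefore have no share of all genes beside them.

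Among the 25 genes with the largest ratio, 19 were highest in vehicle 3, 5 in vehicle 1 and 1 in vehicle 2. Moxd1, encoding a monooxygenase-like protein, had 1, 0 and 1250 counts in vehicle 1, 2 and 3. With vehicle 2 put at a floor of 3 counts, the ratio of vehicle 3 to vehicle 2 was 417, a value set by that floor. The exact 95% interval of the ratio, taken with 0 counts, has a lower end of 338. Cyp2b9, a female-biased P450 gene, went the other way, with 41.1, 6.41 and 0.0712 CPM. With vehicle 3 put at the same floor of 3 counts, the ratio of vehicle 1 to vehicle 3 was 192, the value by which Cyp2b9 was ranked. Without the floor, its 1 count in vehicle 3 makes the ratio imprecise: 577, with an exact 95% interval of 103 to 22790. Acot3, a peroxisomal acyl-CoA thioesterase gene, was also lowest in vehicle 3, at 13.5, 8.40 and 0.285 CPM.

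Several genes of the 25 were in none of the lists. Prtn3, encoding proteinase 3, known from neutrophil granules, was at 0.593, 0.641 and 27.9 CPM, while the neutrophil markers Elane and Mpo were at no more than 0.356 and 0.142 CPM in any library. Scara5, a ferritin receptor gene, was at 2.37, 14.2 and 63.3 CPM, and Tff3, encoding a mucosal trefoil peptide, at 2.35, 4.77 and 52.4 CPM. Fabp5, the epidermal fatty acid-binding protein gene, was at 4.23, 3.77 and 76.6 CPM. Scara5 was graded over the libraries, while for Tff3 most of the gap lay between vehicle 2 and 3. Prtn3 and Fabp5 were high in vehicle 3 alone. Of all 246 genes at least 2-fold apart, 113 belonged to one of the lists and 133 to none.

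**Figure D4:**
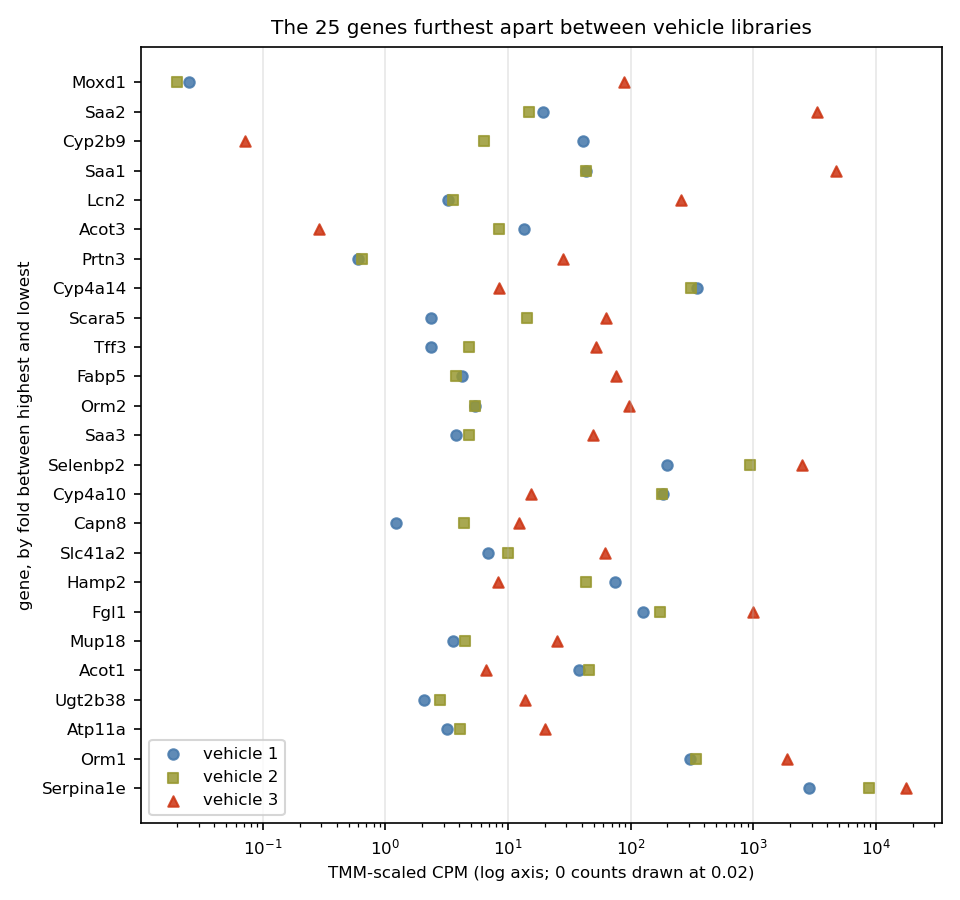
TMM-scaled CPM on a log axis for the 25 genes with the largest ratio between the highest and the lowest vehicle library, 1 symbol per library, with 0 counts drawn at 0.02. For 19 of the 25 genes vehicle 3 is the highest, as for Saa2 at 3350 CPM, and for Cyp4a14, Cyp4a10, Acot1, Acot3, Cyp2b9 and Hamp2 it is the lowest.

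Most of the acute phase list was apart: 22 of its 28 genes with at least 5 CPM (78.6%) were at least 2-fold apart, beside 2.74% of all genes. Of the 22, 20 were highest in vehicle 3, and its median ratio over the 28 was 2.98 against 1.18 over all genes. With total-count scaling, 20 of 28 were at least 2-fold apart. Without vehicle 3, 0 of 26 were at least 2-fold apart. Saa2 was at 19.5, 15.0 and 3350 CPM, a ratio of 224 (exact 95% interval 196 to 258). Saa1 was at 43.7, 42.9 and 4749 CPM, a ratio of 111 (102 to 120). Vehicle 1 and 2 were thus close and vehicle 3 alone was high. The 2 genes are near copies, and the labels do not say how reads shared between copies were counted, so their separate levels are uncertain.

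Other members were also highest in vehicle 3, with smaller ratios. Lcn2 was at 3.26, 3.56 and 259 CPM. Orm2 was at 5.39, 5.41 and 97.4 CPM, and its more abundant relative Orm1 at 305, 344 and 1877 CPM. These are the promoters printed above, apart from Orm1. Saa3, a serum amyloid A gene also expressed by macrophages, was at 3.73, 4.84 and 49.4 CPM, and Fgl1, encoding a secreted fibrinogen-like protein, at 126, 175 and 993 CPM. The fibrinogen chains were less far apart, with Fgb at 3070, 3061 and 6742 CPM (ratio 2.20). In all, 25 of the 28 were highest in vehicle 3, and 5 of these were less than 2-fold apart: Cp, Crp, Il1r1, Mt1 and Mt2, with ratios from 1.24 (Crp) to 1.84 (Il1r1). Among regulators, Socs3, the feedback inhibitor induced by STAT3, was at 5.09, 5.41 and 18.2 CPM. The list also held members low in vehicle 3: Hamp, encoding the iron hormone hepcidin, was at 800, 545 and 267 CPM, and its copy Hamp2 at 74.2, 43.0 and 8.33 CPM.

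Macrophage and neutrophil markers were set beside these values. The Kupffer and macrophage markers summed to 290 CPM in vehicle 3 against 224 and 202 CPM, and 0 of the 9 with at least 5 CPM were 2-fold apart. Of these 9, 8 were highest in vehicle 3 (7 with total-count scaling), with no share of all genes counted beside them. Neutrophil markers summed to at most 1.35 CPM. Whether cell makeup had a part in the acute phase values was not tested. Of interferon response genes, 1 of 20 (5%) was at least 2-fold apart (Zbp1, at 3.04, 4.49 and 9.05 CPM), and the abundant Iigp1 was at 284, 293 and 281 CPM. No gene of MHC class I presentation (0 of 13) or MHC class II (0 of 4) was 2-fold apart. In lists of this size, these counts are near the 2.74% of all genes.

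Of the 20 acute phase genes at least 2-fold apart and highest in vehicle 3, 16 were found in the promoter table. TTGCNCAA, the narrow C/EBP letters, lay in 7 of the 16 (Saa1, Saa2, Saa4, Lcn2, Orm2, Fga and Fgb) and in 0 of the 8 other acute phase genes with at least 5 CPM. TTGCNNAA lay in 9 of the 16 and in 3 of the 8. The NF-kB letters lay in 10 of the 16 and 6 of the 8, TTCNNNGAA, letters of the STAT motif, in 6 and 2, and the looser TTNNNNNAA in 13 and 7. Over all 27025 genes TTGCNCAA lay in 2.99%, TTGCNNAA in 10.8%, the NF-kB letters in 48.7%, TTCNNNGAA in 8.13% and TTNNNNNAA in 58.9%. The 16 and the 8 were parted by their values in these same libraries, so their difference is a description and no test. Of all 26 acute phase genes in the promoter table, 8 held TTGCNCAA, among them Orm3, which is in neither group. Near copies such as Saa1 and Saa2 share their matches and are not independent.

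**Figure D5:**
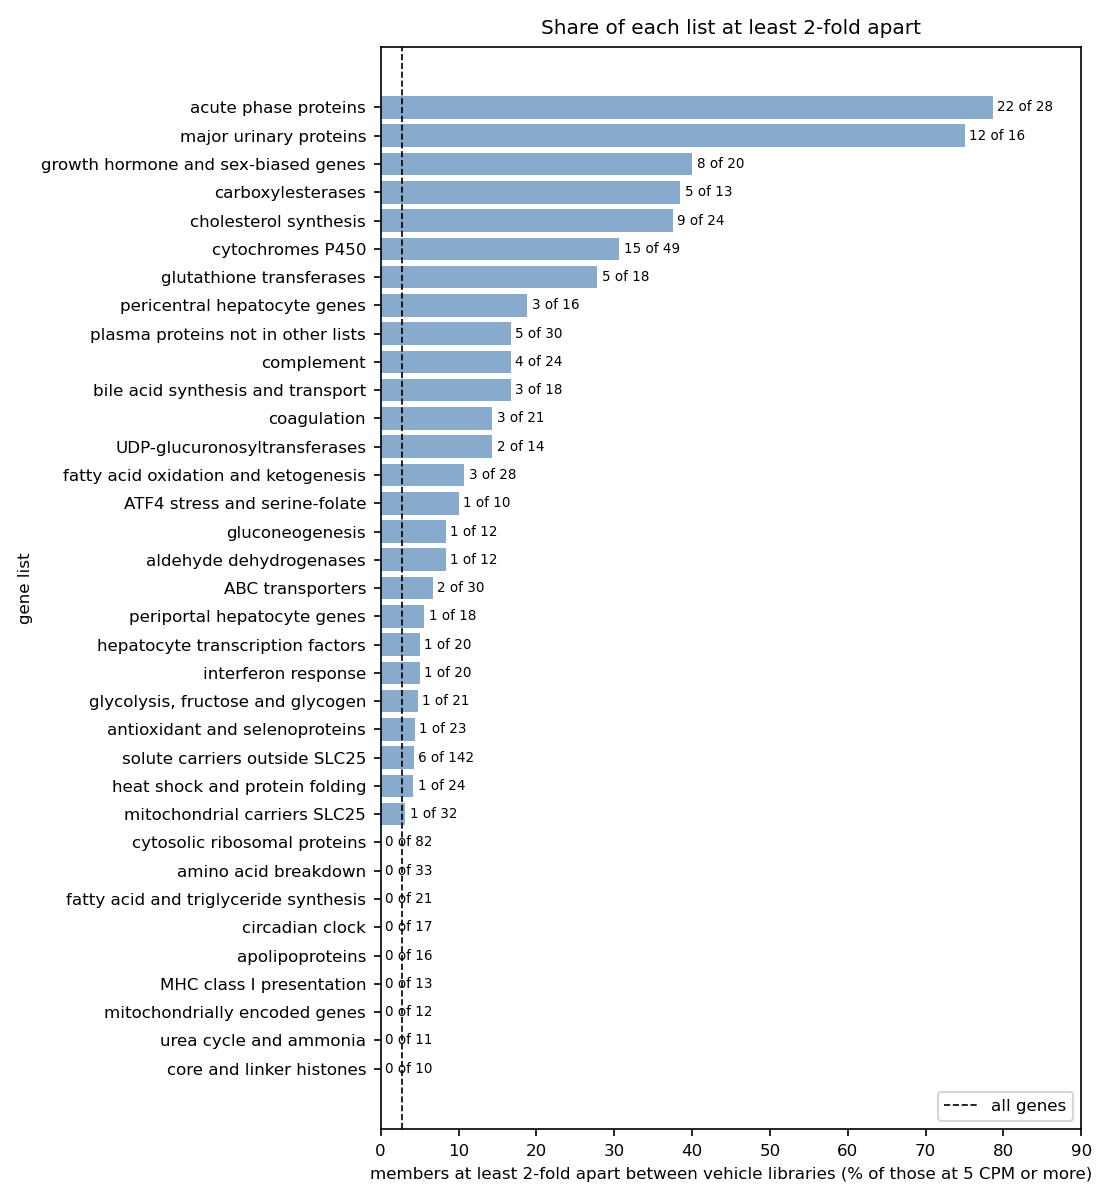
Share of each gene list, in percent of its members with at least 5 CPM, that was at least 2-fold apart between vehicle libraries, with the count beside each bar and a dashed line at 2.74% for all genes; lists with at least 10 such members are drawn. Acute phase proteins (22 of 28) and major urinary proteins (12 of 16) stand highest. At 0 stand 9 lists, which for those of 10 to 33 genes is near the 2.74% of all genes.

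Other secreted proteins were apart in part. Of 24 complement genes 4 were at least 2-fold apart (16.7%), each highest in vehicle 3: C6 at 107, 201 and 399 CPM, C4a at 40.7, 91.2 and 121 CPM, C8b at 211, 280 and 555 CPM and C9 at 334, 440 and 761 CPM. Without vehicle 1, in which all 4 were lowest, 0 of 24 were apart, and without vehicle 3, 1 of 24. The most abundant complement gene, C3, on which all 3 activation routes converge, was at 4703, 5739 and 7137 CPM, a ratio of 1.52. Of 21 coagulation genes only the 3 fibrinogen chains (14.3%), which are also in the acute phase list, were at least 2-fold apart, and 0 of 21 without vehicle 3. Of 30 other plasma proteins 5 were apart (16.7%): Hpx at 2470, 2666 and 9326 CPM and Serpina10 were highest in vehicle 3, while Serpina6, Serpina7 and Ecm1 were lowest there. Without vehicle 3, 0 of 30 were apart, and without vehicle 1, 2 of 30. Serpina6 and Serpina7, which encode the corticosteroid-binding and thyroxine-binding globulins, were at 329, 275 and 156 CPM and at 44.5, 39.6 and 21.5 CPM. No apolipoprotein gene (0 of 16) was 2-fold apart, which in a list of this size is near the 2.74% of all genes. The largest ratio among the most abundant was 1.55 for Apoa1.

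Among protease inhibitors, Serpina1e was at 2855, 8881 and 17545 CPM, a ratio of 6.15 (exact 95% interval 6.10 to 6.19). The other alpha-1-antitrypsin genes with at least 5 CPM were less than 2-fold apart. Serpina1a had the same order of libraries, at 2041, 2322 and 2579 CPM, whereas Serpina1b was at 5884, 6000 and 5845 CPM and Serpina1d at 2758, 2965 and 2857 CPM. For Serpina1e the gap lay between vehicle 1 and 2 as well as between vehicle 2 and 3. Because these genes are near copies, their separate levels are uncertain.

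The major urinary proteins followed a graded order. Of 16 genes with at least 5 CPM, 12 (75%) were at least 2-fold apart, all highest in vehicle 3, and 11 of the 12 were lowest in vehicle 1. Without vehicle 3, 4 of 15 were at least 2-fold apart, without vehicle 1, 8 of 16, and without vehicle 2, 12 of 16. Mup20, encoding darcin, the male pheromone, was at 2836, 3712 and 7976 CPM, Mup7 at 891, 2912 and 4353 CPM, and Mup11 at 231, 428 and 1301 CPM. Mup3, the most abundant, kept close to 1 level, at 11035, 14056 and 13557 CPM. The genes of this cluster are near-identical, so the split of reads between them is uncertain, whereas their sum, 15929, 22470 and 30528 CPM, depends less on that split.

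Other genes known to differ between the sexes through growth hormone pulses were also spread: 8 of 20 (40%) were at least 2-fold apart, 4 of 18 without vehicle 1 and 3 of 19 without vehicle 3. Selenbp2, a male-biased selenium-binding protein gene, was at 198, 946 and 2524 CPM, and Cyp7b1, the male-biased oxysterol hydroxylase gene, at 101, 159 and 529 CPM. Both were lowest in vehicle 1 and highest in vehicle 3, as was Ugt2b38, at 2.08, 2.78 and 13.7 CPM. The female-biased Cyp2b9 and Acot3, given above, had the opposite order. Hsd3b5, a male-biased steroid dehydrogenase gene, was at 156, 298 and 358 CPM, and Egfr, the epidermal growth factor receptor gene, named after its values were seen, at 305, 821 and 912 CPM. For these 2, vehicle 1 was low and vehicle 2 and 3 were close. The male-biased Cyp2d9 was at 1731, 1782 and 1582 CPM, a ratio of 1.13. Many members of this list, Mup20, Selenbp2, Ugt2b38, Cyp7b1, Cyp2b9 and Cyp2d9 among them, are also in other lists.

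Many cytochrome P450 genes were low in vehicle 3. Of 49 cytochrome P450 genes with at least 5 CPM, 15 (30.6%) were at least 2-fold apart, 13 of them lowest in vehicle 3, and without vehicle 3, 2 of 50 were apart. Cyp4a14 and Cyp4a10, fatty acid omega-hydroxylases induced by the nuclear receptor PPAR-alpha, were at 348, 311 and 8.41 CPM and at 184, 180 and 15.4 CPM. Vehicle 1 and 2 were thus close and vehicle 3 was 41.4-fold and 11.9-fold below the highest. Cyp3a11, the main drug-oxidising P450 of the Cyp3a group and a target of the receptors PXR and CAR, was at 828, 517 and 178 CPM. Cyp2a5 was at 1051, 733 and 346 CPM and Cyp2c37 at 222, 227 and 106 CPM. The family's total share of counts was 2.53%, 2.41% and 1.79%. Cyp4a and Cyp2c genes have close copies, so reads may be split among them.

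The other detoxifying families gave the same picture in part. Of 13 carboxylesterase genes 5 (38.5%) were at least 2-fold apart, 4 of them lowest in vehicle 3, such as Ces1d at 905, 860 and 339 CPM. Without vehicle 3, 0 of 12 were apart, and without vehicle 1, 2 of 13. The most abundant, Ces1c, was at 2528, 2641 and 2103 CPM and was not 2-fold apart. Of 18 glutathione transferase genes 5 (27.8%) were apart, 4 lowest in vehicle 3, such as Gstt3 at 38.1, 29.6 and 12.1 CPM, and 0 of 18 were apart without vehicle 3. Gstp1, the pi-class enzyme gene that is higher in male mice, went the other way at 871, 1468 and 2675 CPM. The glutathione transferases together were highest in vehicle 3, at 7083, 7319 and 7778 CPM. Of 14 UDP-glucuronosyltransferase genes 2 (14.3%) were apart, beside 2.74% of all genes: Ugt2b38 was highest and Ugt1a9 lowest in vehicle 3. Ugt1a9 had a mean of 5.35 CPM, close to the floor, and shares 59.9% of its exon bases with Ugt1a1 on the same strand, so its level is uncertain. The UDP-glucuronosyltransferases summed to 2733, 2687 and 2365 CPM. Of 12 aldehyde dehydrogenase genes only Aldh3a2, a fatty aldehyde dehydrogenase, was apart, at 538, 430 and 171 CPM, and none of the 12 without vehicle 3. In lists of this size, such small counts do not stand clear of the 2.74% of all genes. Nr1i3, encoding CAR, the receptor that induces Cyp2b genes, was at 260, 245 and 122 CPM. Its exons share 74.9% of their bases with Tomm40l on the opposite strand (24.0, 20.2 and 7.91 CPM), and since no label gives the strand setting of the counting, the 2 cannot be told apart.

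Fatty acid oxidation genes leaned the same way with smaller ratios. Of 28 genes, 26 were lowest in vehicle 3, but only 3 (10.7%) were at least 2-fold apart: Acot1, at 38.0, 45.6 and 6.55 CPM, Vnn1, encoding a pantetheinase, at 104, 73.4 and 26.2 CPM, and Acaa1b, a peroxisomal thiolase gene, at 1170, 928 and 441 CPM. Without vehicle 3, 0 of 29 were apart. How many of all genes were lowest in vehicle 3 was not counted, so the 26 have no such share beside them. Cd36, the fatty acid translocase gene, named after its values were seen, was at 55.4, 18.7 and 9.76 CPM, with vehicle 1 high and both others lower. No fatty acid and triglyceride synthesis gene (0 of 21) was 2-fold apart, which in a list of this size is near the 2.74% of all genes. Thrsp was at 732, 688 and 759 CPM.

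Cholesterol synthesis genes were higher in vehicle 3. Of 24 genes, 23 were highest there, and 9 (37.5%) were at least 2-fold apart, all 9 highest in vehicle 3. With total-count scaling, 20 were highest in vehicle 3 and 7 were at least 2-fold apart. How many of all genes were highest in vehicle 3 was not counted. Without vehicle 3, 0 of 24 were apart. Sqle, encoding squalene epoxidase, was at 27.6, 31.8 and 96.6 CPM, and Idi1, which isomerises isopentenyl diphosphate, at 19.6, 16.0 and 47.3 CPM. The late-pathway genes Ebp and Sc5d were close, at 185, 181 and 195 CPM and at 285, 250 and 283 CPM. In bile acid synthesis, Cyp7a1, the rate-limiting enzyme of the classical route, was at 241, 155 and 103 CPM, the reverse of Cyp7b1 of the alternative route.

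Vehicle 1 and 2 were also apart in some genes where vehicle 3 was not extreme, and these were named after their values were seen. Gadd45g, a stress-induced growth arrest gene, was at 9.12, 41.6 and 25.9 CPM, Ddit4, an inhibitor of mTORC1 signalling, at 18.1, 43.3 and 26.6 CPM, and Ppp1r3c, a glycogen-targeting phosphatase subunit gene, at 49.1, 106 and 71.7 CPM. Fkbp5 and Zbtb16, both known glucocorticoid-induced genes, were at 84.1, 174 and 118 CPM and at 47.4, 102 and 64.8 CPM. Vehicle 2 was highest and vehicle 1 lowest in all 5. The circadian clock list held no gene at least 2-fold apart (0 of 17, near the 2.74% of all genes in a list of this size), with the output gene Dbp at 120, 104 and 121 CPM.

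No gene was 2-fold apart among 82 cytosolic ribosomal proteins, 33 amino acid breakdown genes, 12 mitochondrially encoded genes, 11 urea cycle genes or 10 histone genes. In the lists of 10 to 33 genes, 0 is near the 2.74% of all genes. The ribosomal protein genes nonetheless had a common order: 80 of 82 were highest in vehicle 3 (76 with total-count scaling), with a median ratio of 1.21. The share of all genes highest in vehicle 3 was not counted. The ribosomal protein genes took 1.92%, 1.99% and 2.21% of counts. Of 142 solute carrier genes outside the mitochondrial SLC25 group, 6 (4.23%) were at least 2-fold apart, and of 32 SLC25 genes 1 (3.12%), both near the 2.74% of all genes, and without vehicle 3 the first count was 0 of 142. Among the solute carriers, Slc41a2, a magnesium transporter gene, had the largest ratio, at 6.87, 10.04 and 61.8 CPM.

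The 10 steadiest genes with at least 100 CPM had ratios of 1.01. They were Hint2, Rps27l, Ndufs3, Laptm4a, Slc31a1, Atp5h, Cdc42, Pemt, Sema4g and Bckdha. Pemt, which makes phosphatidylcholine from phosphatidylethanolamine in liver, was at 373, 376 and 378 CPM, Slc31a1, the copper importer gene, at 212, 212 and 214 CPM, and Ndufs3, a complex I subunit gene, at 140, 140 and 139 CPM. They were picked from 1386 genes for their closeness, so it describes these 3 libraries only. Gapdh, often used as a reference, was at 1284, 1288 and 1248 CPM, a ratio of 1.03.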

How the data were processed

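RNA-seq libraries of 3 vehicle-treated mouse livers were used, from 1 deposited table of 9 libraries. Per the file headers, the authors deposited a read count and an FPKM value for each gene and library. The FPKM values equal the count divided by a gene length and by the library's total count: implied lengths were whole within 0.01 bp for 99.994% of nonzero vehicle values. The submitters' processing notes list edgeR, DESeq2, HTSeq 0.6.1, TopHat and STAR 2.5 without saying what each did. The build, the annotation and the treatment of strand, multiply mapped reads and overlapping genes are not given in the sources used here.

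Levels between genes were compared as deposited FPKM. Spread between libraries was computed from counts as TMM-scaled CPM (edgeR 4.0.16, R 4.3.3; TMM factors 1.025, 1.007 and 0.969) among genes with a mean of at least 5 CPM, as highest over lowest, with a lowest count of 3 or fewer put at 3. Relative to total counts, before the TMM factors are applied, 3 counts are 0.0760, 0.215 and 0.207 CPM in vehicle 1, 2 and 3. The exact (Clopper-Pearson) 95% intervals of ratios of counts hold for counting error alone, since PCR duplicates are not separate molecules. They also take no account of the libraries being picked as highest and lowest. The common biological coefficient of variation came from edgeR with no covariate after its filter on low counts. The scripts were tested on simulated data.

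Genes were named by rule: the 25 nuclear genes with the highest mean FPKM and up to 5 mitochondrial ones, the 25 with the largest ratio, the 10 with the smallest among those with at least 100 CPM, the adiponectin receptors, the sex-linked markers, and up to 3 members of each list by level and 3 by ratio. Unnamed gene models, pseudogenes, small RNA genes and symbols held by more than 1 entry (126 entries) were passed over, as were 27 entries whose names had become dates. Entries passed over in naming stayed in the library totals and in the counts over all genes. Further list members are given with their list. The gene lists and the rule were chosen with earlier results of these data known. Exon overlaps used GENCODE M21, and promoters the RefSeq table, in which 34 of 48 named genes were found. Alternatives were other scalings (DESeq2 1.42.0 size factors, total count, upper quartile), other floors, vehicle 1 thinned to 13942322 counts, and each library left out in turn. Some list members that the rule names are not reported here.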

Additional observations from a re-analysis of the deposited data

How the results depend on the processing

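With 3 libraries the spread rests on few values. Genes at least 2-fold apart numbered 246 with a mean of at least 5 CPM, 670 at a mean of 1 CPM, 144 at 20 CPM and 2264 with no floor, and between 47 and 220 with 1 library left out. The count was 246 with DESeq2's size factors, 270 with total-count scaling, 251 with upper-quartile scaling and 266 with vehicle 1 thinned. At a mean of 20 CPM, vehicle 1 was apart from the middle library in 19 genes instead of 37, vehicle 2 in 2 instead of 4 and vehicle 3 in 77 instead of 124. The common biological coefficient of variation was 0.157, between 0.0977 and 0.193 with 1 library left out, and the median gene-wise dispersion of DESeq2, on its square root scale, was 0.0685. The 10 most abundant genes took 17.3% of counts and 23.7% of summed FPKM. At a mean FPKM of 10 rather than 1, 4025 rather than 10248 entries were detected. The causes of these shifts were not tested beyond the settings themselves. No paired analysis was possible because only the vehicle group was used, so no 2 groups share replicate numbers.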

Other observations

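Trf, encoding transferrin, was at 25.1, 33.0 and 43.0 FPKM in vehicle 1, 2 and 3. In GENCODE M21, 63.5% of its exon bases lie in exons of Gm20425 on the same strand. Cfb, encoding complement factor B, had a mean of 1.53 FPKM and C2 of 6.87 FPKM, and 79.5% and 42.8% of their exon bases lie in exons of Gm20547 on the same strand. The labels do not say how reads lying in 2 genes were counted, and the part of these overlaps in the levels was not tested.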
